A study of Mus musculus with 2 samples.

Results

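Retnlg-negative neutrophils of the mouse abdominal aorta were examined here. They are cells that carried neutrophil transcripts but no unique molecular identifier (UMI, the tag that counts 1 captured RNA molecule) of Retnlg, which encodes the resistin-like protein of circulating mouse neutrophils. The cells were chosen on their own measured counts. Each cell needed 700 or more UMIs from 200 or more genes, with less than 20% of its UMIs mitochondrial. It also had to show at least 10 UMIs of S100a8 and S100a9 together, at least 1 UMI of Csf3r or Cxcr2, no Retnlg, at most 2 UMIs of the C1q genes, no Cd3e or Cd79a and at most 3 UMIs of Dcn. The rule took 1525 of the 34889 cells past the filter. Of these, 1520 came from the 23972 cells of the AngII+HS library (6.34%) and 5 from the 10917 cells of the Control library (0.0458%). The level of every gene in the rule is therefore a matter of selection and is given only as a description.

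The 2 libraries were made from male C57BL/6J mice, 5 months old in the study's methods, at day 28. The AngII+HS mice carried minipumps that released angiotensin II at 1500 ng/kg/min and drank water with 0.9% NaCl and 0.2% KCl, a treatment known to cause abdominal aortic aneurysm, and the Control mice were given saline. Each condition had 1 library, described in the series record as a pool of 5 mice and in the extraction protocol as 1 control and 2 treated animals. The suprarenal aorta was collected after perfusion with buffered saline and digested with enzymes before capture. Neutrophils of the wall and neutrophils of any blood left after perfusion cannot be told apart. With 1 library per condition no difference has a replicate check, no test was made and no p-value is given.

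Neutrophils are short-lived granulocytes that leave the bone marrow with their granule proteins already made, enter inflamed tissue through chemokine receptors and adhesion molecules, and kill microbes with proteases and oxidants. In tissue they can prolong their life, transcribe cytokines anew and shed RNAs typical of the blood stage. In aneurysm they are known as a source of elastin-degrading proteases and of signals that attract further leukocytes.

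Of the libraries themselves, the Control matrix held 11448 barcodes and 86618995 UMIs and the AngII+HS matrix 24804 barcodes and 117146856 UMIs. The barcode lists stood against the other matrix: the list filed with Control named 24804 barcodes and the list filed with AngII+HS named 11448. Between the lists 67 barcodes were shared. The counts and labels of the matrices were used as they stood, without barcode sequences. The Retnlg-negative cells of AngII+HS were shallow, with a median of 1306.5 UMIs and 697 genes, against 4704 UMIs in macrophages and 4489 in monocytes. Among them 150 cells (9.87%) held more than 3000 UMIs and carried 35.9% of the group's UMIs. In those deep cells S100a8 and S100a9 summed to 6392 CPM (the UMIs of a gene in every 1000000 UMIs of its cell group), while the shallower cells gave 32835 to 38626 CPM over 3 depth ranges. Their endothelial markers summed to 3405 CPM against 219 to 268 CPM in the shallower ranges, and the doublet caller Scrublet marked 132 of the 150. Values for the 1370 cells of at most 3000 UMIs are given beside the lists whose counts depended most on those deep cells. Without the deep cells 143 values of single genes and lists moved, 92 did not and 1 reversed.

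The cells matched their neutrophil label on genes outside the rule. All 16 listed neutrophil genes were detected, and they summed to 14069 CPM, against 17165 CPM in neutrophils that kept Retnlg, 1041 CPM in macrophages and 2397 CPM in monocytes. Mmp9, a gelatinase of neutrophil granules, stood at 1153 CPM in the Retnlg-negative cells, 15.0 CPM in macrophages and 27.9 CPM in monocytes. G0s2, an inhibitor of triglyceride breakdown that is abundant in neutrophils, stood at 3372, 25.1 and 16.2 CPM in the same order. Lymphocytes reached 6608 CPM over this list, of which Slpi alone gave 6309 CPM. The surface marker Ly6g was poorly captured, at 10.1 CPM (95% interval 6.77 to 14.5).

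Of the primary granule genes, transcribed in marrow precursors, Mpo, Ctsg and Elane were at or near 0 and Prtn3 was low, at 15.3 CPM against 9.03 CPM in macrophages and 27.9 CPM in monocytes. Mpo and Ctsg had no UMI, and Elane had 0.348 CPM. Ngp, a secondary granule protein, stood at 1.39 CPM and Camp, the cathelicidin, at 8.01 CPM. Markers of other cells were detected at varying levels. Macrophage markers, led by Apoe, summed to 1529 CPM against 23478 CPM in macrophages. That sum includes genes on which the cells were selected, such as the C1q genes. The 10 of its 16 genes that were compared, none of them in the rules, were each past 2-fold lower than in macrophages. T, NK and B cell markers summed to 71.4 CPM against 6774 CPM in lymphocytes. Klrb1c and Ncr1 were at 0, and Cd3e and Cd79a were at 0 because the rule required it. Eosinophil, basophil and mast cell markers, led by the mast cell chymase Mcpt4 and with Epx and Mcpt8 at 0, summed to 114 CPM, or 41.3 CPM without the deep cells, against 34.7 CPM in Retnlg-positive neutrophils, and Mcpt4 had 78 UMIs with the deep cells and 2 without. Endothelial markers, led by Fabp4 and with none at 0, summed to 1379 CPM, or 243 CPM without the deep cells, against 758 CPM in macrophages and 286 CPM in monocytes. Platelet and erythroid markers, led by the hemoglobin chain Hbb-bs and with Gp9 at 0, summed to 1021 CPM, or 1268 CPM without the deep cells, against 2338 CPM in macrophages and 542 CPM in monocytes. Of 6 compared with monocytes, 4 were higher and 1 lower (median 4.29), and Hbb-bs stood at 387 CPM against 10.3 CPM. Fibroblast and smooth muscle markers, led by Acta2, summed to 4408 CPM, above the 1987 CPM of macrophages. A smaller sum of such markers stood at 4250 CPM and was 22.2% of its level in the whole library. That share was 9.96% in macrophages and 12.1% in monocytes. Whether RNA released by broken cells contributed to the levels below was not tested beyond the subtraction described at the close.

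The 5 Control cells did not form a comparable group. They held 10025, 2029, 7593, 2001 and 12164 UMIs, and their S100a8 and S100a9 UMIs were 20, 76, 15, 76 and 23. The 3 deep cells therefore had the fewest S100 molecules, and no gene level was drawn from this group.

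Among all neutrophils, that is, cells that met the same rule with any Retnlg count, 5 of 110 in Control (4.55%, exact interval 1.49 to 10.3%) and 1520 of 3550 in AngII+HS (42.8%, 41.2 to 44.5%) had no Retnlg. These intervals, and all others here, cover counting error only. Depth moved the shares in both libraries. With each cell thinned to 700 UMIs, 10.9% (5.77 to 18.3%) of Control neutrophils and 54.3% (52.6 to 55.9%) of AngII+HS neutrophils lacked Retnlg. Thinning removed the last Retnlg UMI from 406 of the 2030 Retnlg-positive neutrophils of AngII+HS and from 7 of the 105 of Control. How many Retnlg-negative cells lacked Retnlg through shallow reading alone was not tested. The distribution differed at its upper end too, where 65.5% of Control neutrophils and 6.96% of AngII+HS neutrophils held 20 or more Retnlg UMIs. Control neutrophils were deeper, with a median of 2871 UMIs against 1361, and after thinning the shares were 11 of 110 cells and 1.69%. Lymphocytes, which should lack the gene, carried it in 0 of 102 Control cells and in 3.04% of AngII+HS cells, or 0.552% after thinning. Just outside the rule lay 459 AngII+HS cells with 1 Retnlg UMI, and 406 that lacked Csf3r and Cxcr2. At the S100 threshold, 92 cells held 10 to 12 UMIs of S100a8 and S100a9 and 112 cells outside it held 7 to 9.

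**Figure D1:**
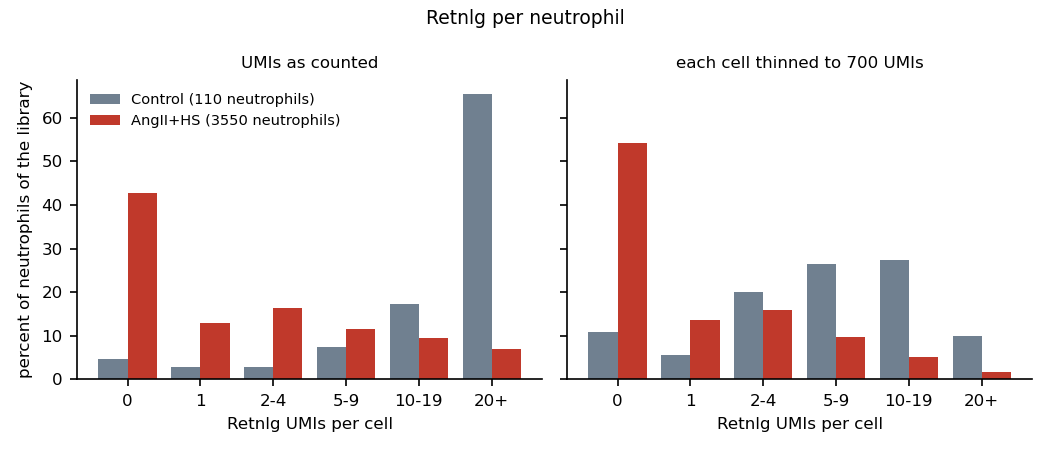
Retnlg UMIs per cell (horizontal axis, bins) against the percent of each library's neutrophils (vertical axis), for 110 Control and 3550 AngII+HS neutrophils, as counted (left) and after each cell was thinned to 700 UMIs (right). Cells without Retnlg were 4.55% of Control and 42.8% of AngII+HS neutrophils as counted, and 10.9% and 54.3% after thinning.

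The selected genes themselves varied among the 1520 cells. S100a8 had a median of 15 UMIs per cell (0 to 94), and S100a9 a median of 22 (1 to 159). Csf3r, the receptor for the granulocyte growth factor, was found in 90.9% of the cells, and Cxcr2, the receptor for Cxcl1 and Cxcl2, in 35.7%.

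Across all genes, the Retnlg-negative neutrophils of AngII+HS were set against 2311 macrophages (at least 5 C1q UMIs, at least 2 of Cd68, Csf1r and Adgre1) and 131 monocytes (at least 2 Ly6c2 UMIs, at least 2 of Csf1r and Ccr2) of the same library, both with fewer than 10 S100a8 and S100a9 UMIs, no Retnlg and the same limits on Cd3e, Cd79a and Dcn (monocytes also at most 2 C1q UMIs). A gene was compared where both groups together had at least 50 UMIs, and a difference was counted from 2-fold. Of 11228 genes compared with macrophages, 1793 (16.0%) were higher and 1986 (17.7%) lower in the neutrophils, with a median log2 ratio of -0.22. Of 6874 genes compared with monocytes, 1101 (16.0%) were higher and 1160 (16.9%) lower, with a median of -0.18. Without the deep cells the lower genes numbered 4498 and 2384 and the medians were -0.68 and -0.52. The counts and medians of the gene lists below are read beside these values.

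Inflammatory mediators were abundant in the Retnlg-negative cells. The 24 listed cytokines, chemokines and mediators summed to 49095 CPM, against 35265 CPM in macrophages, 31625 CPM in monocytes and 3493 CPM in lymphocytes. Cxcl2, a chemokine that recruits neutrophils through Cxcr2, reached 22502 CPM (22329 to 22676), against 12707 CPM in macrophages and 10322 CPM in monocytes. Within single cells thinned to 700 UMIs, Cxcl2 had a median of 13 UMIs and a highest value of 110, and 97.4% of the cells carried it. In lymphocytes 25.9% did, at a median depth of 2589.5 UMIs before thinning.

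Promoter sequence is shown for 6 inflammatory genes that were picked because they hold a short motif that NF-kB proteins are known to bind. The pattern GGG, any 2 bases, TT, any 1 base and CC was searched on both strands of the 250 bases before each start in the RefSeq promoter table (GRCm38.p6). It occurred in 4.71% of 27025 genes, in 7 of 17 matched genes of the cytokine list, in 6 of 15 of the NF-kB list and in 2 of 22 of the survival list. The windows of Tnf, Il1b, Il1a, Ccl3 and Acod1 held no match, those of Il1rn, Il6, Ccl9, Nfkb2, Rel, Tnip1 and Ccrl2 held one but are not shown, and Il23a and Ccl4 were not matched to the table. A match is a description of letters and not evidence of binding. Each stretch below runs 5′ to 3′ on the strand of the gene, with the matching letters in capitals, and the matches of Csf1, Nfkbia and Tnfaip3 and the first match of Cxcl1 lie on the opposite strand. Cxcl2 (chr5:90903802-90903831, + strand) and Cxcl1 (chr5:90891155-90891184, + strand) each held 2 matches within 30 bases, and Cxcl3 (chr5:90786018-90786047, + strand), Csf1 (chr3:107760604-107760633, - strand), Nfkbia (chr12:55492657-55492686, - strand) and Tnfaip3 (chr10:19015411-19015440, - strand) held 1.
Cxcl2: GGGAATTTCCctggtccccGGGCTTTTCCa
Cxcl1: gGGAAACACCCtgtactccGGGAATTTCCc
Cxcl3: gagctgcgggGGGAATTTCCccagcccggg
Csf1: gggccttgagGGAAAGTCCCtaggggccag
Nfkbia: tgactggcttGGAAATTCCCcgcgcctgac
Tnfaip3: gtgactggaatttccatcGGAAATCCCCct

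Of these 6 genes, Csf1, Nfkbia and Tnfaip3 were past 2-fold higher in the neutrophils than in both other groups, as given below. Cxcl2 was past 2-fold against monocytes only, and Cxcl3, a relative of Cxcl2, against macrophages only, at 1613 CPM against 529 and 1313 CPM. Cxcl1, a further Cxcr2 ligand, stood at 730 CPM in the neutrophils, 1150 CPM in macrophages and 759 CPM in monocytes.

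Of the 24 listed cytokines, chemokines and mediators, 22 were compared with macrophages, and 8 were higher and 4 lower, with a median log2 ratio of 0.68. Against monocytes 8 were higher and 4 lower of 22, with a median of 0.26. Among cells of at most 3000 UMIs 11 were higher and 3 lower than in macrophages (median 0.61) and 9 and 5 than in monocytes (median 0.52). Tnf, an activator of endothelium and leukocytes, stood at 2090 CPM (2038 to 2144), against 912 CPM in macrophages and 546 CPM in monocytes. Il1b, the precursor of interleukin 1 beta, stood at 4856 CPM, which was above the 2159 CPM of macrophages and close to the 4363 CPM of monocytes. The neutrophils thus exceeded macrophages in both cytokines, and exceeded monocytes by 2-fold in Tnf alone of the pair.

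Csf1, Il23a and Acod1 were far higher than in both groups. Csf1, the growth factor that sustains macrophages, reached 639 CPM (610 to 669) in the neutrophils, 31.2 CPM in macrophages and 13.2 CPM in monocytes, log2 ratios of 4.36 and 5.52. Il23a, a subunit of a cytokine that drives T helper cells, stood at 234 CPM against 6.56 and 17.6 CPM. Acod1, the enzyme that makes itaconate in activated myeloid cells, stood at 3759 CPM against 142 and 426 CPM. After thinning, Csf1 was carried by 32.0% of the neutrophils, 1.73% of macrophages and 1.10% of lymphocytes, and Acod1 by 82.5%, 7.75% and 2.58%.

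Ccl2 and Il10 went the other way. Ccl2, the main monocyte chemoattractant, stood at 540 CPM in the neutrophils (275 CPM without the deep cells), against 2092 CPM in macrophages and 1936 CPM in monocytes. Il10, an anti-inflammatory cytokine, stood at 39.0 CPM against 457 and 204 CPM. Ccl4 was 8599 CPM in macrophages and 4053 CPM in the neutrophils, whereas its relative Ccl3 was 1625 and 2637 CPM. The pair of chemokines, which bind shared receptors, was therefore weighted differently in macrophages and in the neutrophils. In monocytes Ccl4 stood at 2554 CPM and Ccl3 at 593 CPM, both below the neutrophils. Il6 changed its side with depth, at 69.0 CPM in all Retnlg-negative cells, 26.6 CPM without the deep cells and 40.5 CPM in macrophages.

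**Figure D2:**
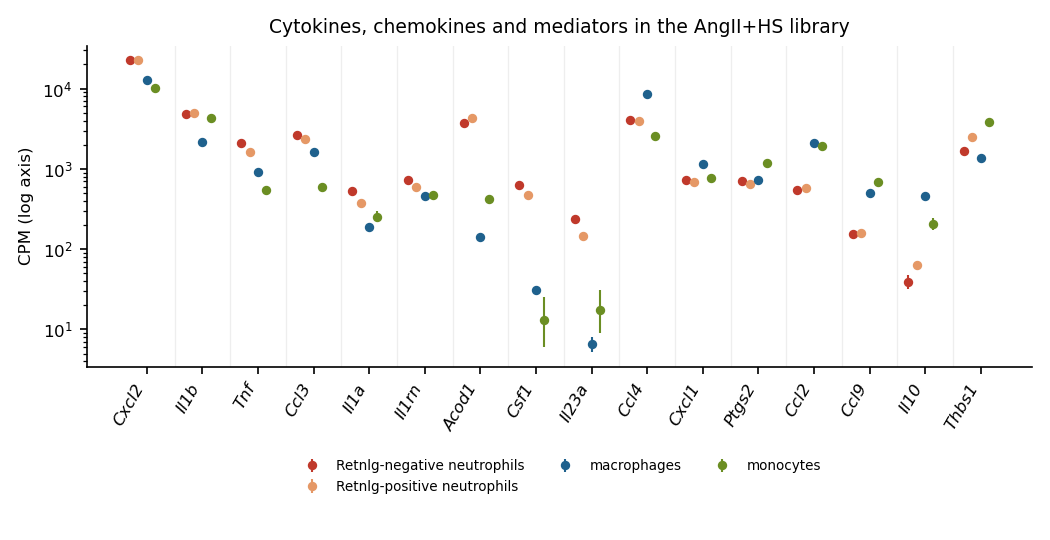
CPM (log axis) of 16 cytokines, chemokines and mediators in 4 cell groups of the AngII+HS library, with bars for 95% counting intervals. Csf1, Il23a and Acod1 sit far above macrophages and monocytes in both neutrophil groups, while Ccl2, Ccl9 and Il10 sit below them.

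The list of NF-kB and immediate early genes leaned higher against both cell types. It holds immediate early genes such as Fos and Egr1 too, and which pathway set their levels was not tested. Of 20 listed NF-kB and immediate early genes, 9 were higher and 1 lower than in macrophages, and 9 were higher and 1 lower than in monocytes, with medians of 0.71 and 0.84. Nfkbia, which encodes the inhibitor that NF-kB induces against itself, stood at 9566 CPM (9453 to 9680), against 2711 and 3034 CPM. Further feedback genes showed like differences: Tnfaip3, a ubiquitin-editing brake on NF-kB, stood at 1265 CPM against 568 and 493 CPM, and Nfkbiz, a nuclear cofactor of the pathway, at 1929 CPM against 605 and 513 CPM. Without the deep cells 10 of the 20 genes were higher and 2 lower in each comparison. Of the transcription factor subunits, Relb was past 2-fold against macrophages, at 292 CPM against 132 and 176 CPM. The subunits Nfkb1 and Rel were not: Nfkb1 stood at 1156, 1231 and 889 CPM and Rel at 683, 763 and 712 CPM in neutrophils, macrophages and monocytes. Cd83, an activation marker of antigen-presenting cells, was the 1 lower gene in both comparisons, at 71.4 CPM against 679 and 313 CPM.

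Receptors for microbes and inflammatory signals showed 12 higher and 1 lower of 20 against macrophages (median 1.89) and likewise 12 and 1 against monocytes (median 1.30). Trem1, an amplifier of inflammatory signals, stood at 758 CPM against 23.4 and 74.9 CPM. Clec4e, a receptor for mycobacterial lipid and necrotic cells, stood at 2735 CPM against 348 and 837 CPM. Il1r2, a decoy that takes up interleukin 1, stood at 687 CPM against 26.9 and 82.2 CPM. The receptors Cd14 and Tlr2 differed little: Cd14 had 1541, 1639 and 1281 CPM and Tlr2 401, 418 and 357 CPM in neutrophils, macrophages and monocytes. The lower gene was Fcgr2b, the inhibitory antibody receptor, at 56.8 CPM against 320 and 217 CPM.

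Of the adhesion and trafficking genes, 8 of 13 were higher and 1 lower than in macrophages, and 5 of 12 were higher than in monocytes with none lower. Icam1, a ligand for leukocyte integrins, stood at 998 CPM against 179 and 157 CPM. Cxcr4, linked to ageing and marrow homing of neutrophils, stood at 399 CPM against 230 CPM in macrophages and 261 CPM in monocytes. The gene lower than in macrophages was Ccr2, part of the monocyte rule, at 27.2 CPM.

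In metabolism, glycolysis as a list did not stand out. Of 20 genes 3 were higher and none lower than in macrophages (median -0.06), and of 19 genes 3 were higher and 2 lower than in monocytes (median -0.42). The 3 higher genes of the first comparison were a transporter for glucose, a transporter for lactate and a regulator. Slc2a3, the high-affinity glucose transporter, stood at 71.1 CPM against 6.56 CPM in macrophages and no UMI in monocytes, which made it at least 16.1-fold higher than the level that 3 UMIs would give there. Slc16a3, which exports lactate, stood at 154 CPM against 32.5 CPM in macrophages and 112 CPM in monocytes. Pfkfb4, which sets the level of the activator of phosphofructokinase, stood at 39.0 CPM against 17.4 and 11.7 CPM.

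Pfkfb3, a relative of Pfkfb4, was past 2-fold against monocytes, at 86.1 CPM against 41.1 CPM. Enzymes with lower values in the neutrophils included Gapdh and Ldha. Gapdh stood at 513, 610 and 871 CPM and Ldha at 142, 180 and 270 CPM in neutrophils, macrophages and monocytes. The 2 genes lower than in monocytes were Tpi1 and Pgam1, both enzymes of the pathway, at 57.5 against 144 CPM and 110 against 272 CPM. Without the deep cells 3 glycolysis genes were lower than in macrophages and 6 lower than in monocytes. Hypoxia genes showed 5 higher and 1 lower of 19 against macrophages, and 1 higher and 2 lower of 17 against monocytes. The hypoxia list without the deep cells had 4 higher and 4 lower, and 1 higher and 6 lower. Hif1a, the regulator of that program, stood at 491, 424 and 783 CPM.

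Nuclear genes of the respiratory chain had low medians. Of its 24 nuclear genes none was higher and 4 were lower than in macrophages (median -0.68), and 8 were lower than in monocytes (median -0.90). The lower share was 16.7% against macrophages, near the 17.7% of all genes, and 33.3% against monocytes, where all genes gave 16.9%. Without the deep cells 16 and 18 were lower, with medians of -1.22 and -1.41, where all genes stood at -0.68 and -0.52. Of all genes 4498 of 11228 and 2384 of 6874 were then lower. Cox5a, a subunit of cytochrome oxidase, stood at 177 CPM against 367 and 436 CPM. The 13 mitochondrially encoded genes had a median of -0.64 against macrophages and 0.01 against monocytes, with none past 2-fold. Without the deep cells 7 of the 13 were lower than in macrophages (median -1.07) and 2 lower than in monocytes (median -0.60). A median of 0.473% of a cell's UMIs were mitochondrial, against 1.24% in macrophages and 0.856% in monocytes.

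Lipid, iron and redox genes divided. Against macrophages 6 of 22 were higher and 9 lower, and against monocytes 8 were higher and 3 lower. Cells of at most 3000 UMIs gave 6 higher and 11 lower, and 7 higher and 6 lower. Slc7a11, the cystine importer that feeds glutathione, stood at 1795 CPM (1746 to 1845) against 298 and 486 CPM. Dgat2, which completes triglyceride synthesis, stood at 92.7 CPM against 6.48 and 14.7 CPM, and Lpcat2, which makes platelet-activating factor, at 335 CPM against 99.7 and 77.8 CPM. Dgat1, which catalyses the same step as Dgat2, stood at 134 CPM against 31.9 and 47.0 CPM, so both enzymes of that step were past 2-fold in each comparison.

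Hmox1 and Txnrd1 were past 2-fold lower than in macrophages. Hmox1, which degrades heme, stood at 670 CPM against 1589 and 1118 CPM, and Txnrd1, thioredoxin reductase, at 264 CPM against 560 and 436 CPM. Against monocytes Hmox1 had a log2 ratio of -0.74, or -1.27 and so past 2-fold without the deep cells. Fth1, the ferritin heavy chain, was found in every cell after thinning, at 30949 CPM against 21817 and 21036 CPM, while Ftl1, the light chain, stood at 5044, 8669 and 5923 CPM. Fabp4, an endothelial marker as well as a lipid carrier, depended on the deep cells, at 991 CPM with them and 179 CPM without.

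The NADPH oxidase, the neutrophil's source of superoxide, split by subunit, with 3 of 7 genes higher and 2 lower than in macrophages, and 2 and 2 against monocytes. Ncf1, its cytosolic organizer, stood at 1057 CPM (1020 to 1096) against 137 CPM in macrophages and 200 CPM in monocytes, and Ncf4 at 248 CPM against 95.5 and 147 CPM. Cybb, the catalytic membrane subunit, stood at 200 CPM against 698 and 916 CPM. Its partner Cyba stood at 532 CPM against 983 and 1068 CPM. Rac2, the small GTPase of the complex, stood at 289 CPM against 102 and 141 CPM. The higher genes were thus cytosolic subunits, and the membrane subunit Cybb was lower in both comparisons.

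**Figure D3:**
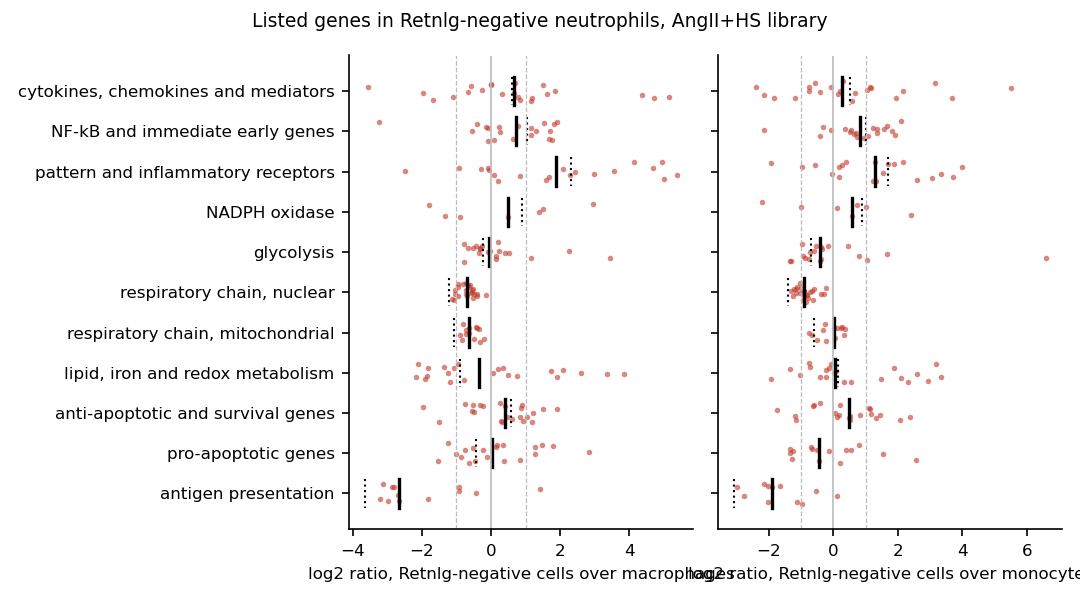
Log2 ratio of Retnlg-negative neutrophils over macrophages (left) and monocytes (right), 1 point per compared gene in 11 lists, AngII+HS library. Solid bars are list medians, dotted bars the medians without neutrophils above 3000 UMIs and dashed lines 2-fold; receptors lie to the right (1.89 and 1.30), nuclear respiratory genes (-0.68 and -0.90) and antigen presentation (-2.67 and -1.91) to the left.

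Survival genes had medians modestly above those of all genes (-0.22 and -0.18), with a few large differences. Of 23 anti-apoptotic and survival genes 5 were higher and 2 lower than in macrophages (median 0.39). That was 21.7% and 8.70%, against 16.0% and 17.7% of all genes, so the higher share lay near that of all genes. Of 21 compared with monocytes 7 were higher and 3 lower (median 0.48), or 33.3% and 14.3% against 16.0% and 16.9%. Among cells of at most 3000 UMIs 8 were higher and 4 lower than in macrophages (median 0.56), and 8 were higher and 5 lower than in monocytes (median 0.51). Mcl1, the short-lived BCL2-family protein on which neutrophil life is known to depend, stood at 2019 CPM (1967 to 2071) against 1068 CPM in macrophages and 1134 CPM in monocytes, a log2 ratio of 0.92 and 0.83. Without the deep cells it was 2555 CPM, past 2-fold in both comparisons.

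The survival genes past 2-fold against both groups were Bcl2l1, Birc3, Pim1, Gadd45b and Ier5. Bcl2l1, the gene of BCL-XL, stood at 335 CPM (314 to 356) against 144 and 63.2 CPM. Birc3, an inhibitor of apoptosis downstream of TNF receptors, stood at 616 CPM against 217 and 278 CPM. Pim1, a kinase that supports survival under growth factors, stood at 2061 CPM against 913 and 953 CPM, and Gadd45b, a stress-induced regulator, at 1727 CPM against 462 and 411 CPM. The lower genes against macrophages were Pik3r5 and Il3ra, a kinase subunit and a cytokine receptor, at 68.0 against 267 CPM and 5.23 against 15.4 CPM. Cdkn1a, the cell cycle inhibitor p21, stood at 592 CPM against 1005 CPM in macrophages and 1345 CPM in monocytes. The Bcl2a1 family cannot be assigned with certainty, since its copies are nearly identical. Bcl2a1b stood at 1336 CPM in the neutrophils, 1101 CPM in macrophages and 532 CPM in monocytes.

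Death genes as a list lay near the shares of all genes. Of 20 genes 5 were higher and 3 lower than in macrophages (median 0.02), or 25% and 15% against 16.0% and 17.7% of all genes. Of 15 compared with monocytes 2 were higher and 4 lower (median -0.43), or 13.3% and 26.7% against 16.0% and 16.9%. Leaving out the deep cells gave 4 higher and 7 lower than in macrophages (median -0.44), so the balance of the list turned. All genes then gave 1329 higher and 4498 lower. Against monocytes 2 death genes were higher and 6 lower without the deep cells (median -0.42). Fas, the death receptor, stood at 412 CPM (389 to 436) against 58.3 and 69.0 CPM. Bcl2l11, the gene of the BH3-only protein BIM, stood at 1183 CPM against 491 and 808 CPM, and Bid, which links death receptors to mitochondria, at 31.7 CPM against 9.19 and 10.3 CPM. Bax, Bak1 and Cycs had lower values, past 2-fold against both groups for Bax and against monocytes for Bak1 and Cycs. Bax, a pore-forming effector, stood at 109 CPM (97.6 to 122) against 258 and 278 CPM, and Bak1, the other effector, at 18.8 CPM against 31.9 and 47.0 CPM. Cycs, the cytochrome c released through that pore, stood at 109 CPM against 172 and 261 CPM. Against macrophages Fas, Bcl2l11 and Bid were thus at least 2-fold higher and Bax at least 2-fold lower. These 4 genes were picked from the 20 and do not describe the list. Against monocytes Bcl2l11 had a log2 ratio of only 0.55 and Bbc3 of 0.22, while Casp8 had -1.26.

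**Figure D4:**
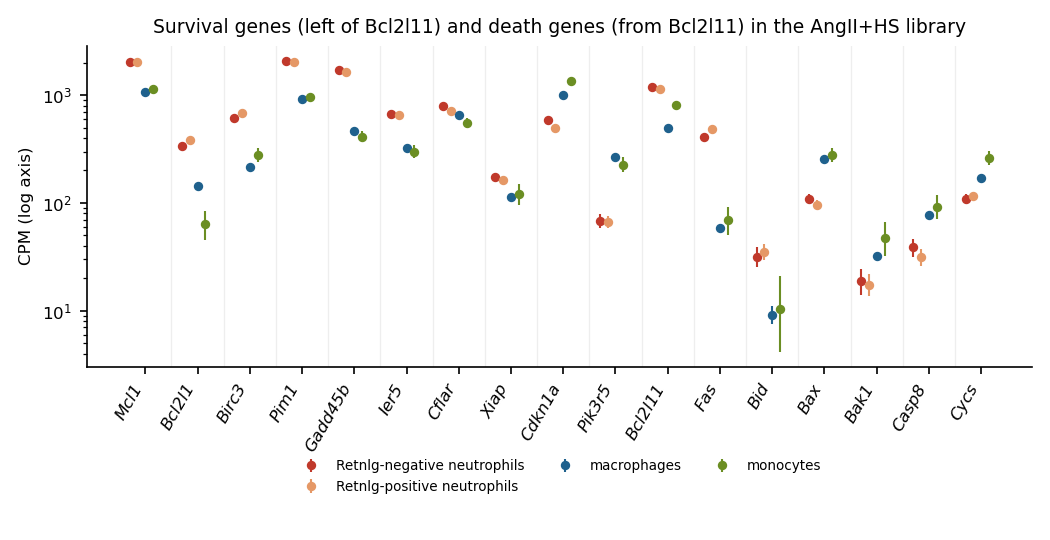
CPM (log axis) of 10 survival genes (Mcl1 to Pik3r5) and 7 death genes (Bcl2l11 to Cycs) in 4 cell groups of the AngII+HS library, with bars for 95% counting intervals. Gadd45b, Birc3 and Fas sit above macrophages and monocytes in both neutrophil groups, and Bax, Cycs and Pik3r5 below them.

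Inflammasome genes were uneven. Nlrp3, the sensor, stood at 1693 CPM (1646 to 1741) against 818 and 552 CPM, while Casp1, the protease it activates, had 7.67 CPM against 23.6 and 22.0 CPM. Il18, a substrate of that protease, had 6.27 CPM against 28.6 and 44.1 CPM. Txnip, which binds the sensor and also restrains glucose uptake, stood at 795 CPM against 77.5 and 94.0 CPM. In all, 3 of 10 genes were higher and 2 lower than in macrophages, or 3 and 3 without the deep cells.

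Over all genes with at least 100 UMIs and found in at least 10% of either group's cells, the 10 with the highest ratio to macrophages were 4732465J04Rik, Il36g, Chil1, G0s2, Stfa2l1, Asprv1, Cstdc4, H2-Q10, Lamb3 and Pglyrp1. Il36g, an epithelial and neutrophil cytokine of the interleukin 1 family, stood at 412 CPM against 2.24 CPM. Lamb3, a laminin chain, stood at 133 CPM against 1.20 CPM. The lowest were Slc39a12, Mmp12, Fcrls, Slamf9, Ms4a7, Ccl12, Cd72, Mrc1, Hpgds and Cd163, among them the macrophage elastase Mmp12 at 3.83 CPM against 163 CPM and the scavenger receptor Cd163 at 2.44 CPM against 60.3 CPM.

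Against monocytes the highest were G0s2, Cstdc4, Tnfrsf26, Chil1, Hsd11b1, Stfa2l1, Il36g, Slc2a3, Hcar2 and Ltb. Hcar2, the niacin and hydroxybutyrate receptor, stood at 600 CPM against 5.87 CPM, and Ltb, lymphotoxin beta, at 480 CPM against 5.87 CPM. Tnfrsf26, Chil1 and Hsd11b1 had no UMI in monocytes and were at least 26.9-fold, 23.0-fold and 21.7-fold higher than 3 UMIs there. The lowest were Ms4a4c, Ms4a6c, Ms4a6b, Plac8, Clec4a1, Ly86, Aif1, Fcgr1, Clec4a3 and Lgals3bp. Ms4a4c, of a family that marks monocytes, stood at 22.3 CPM against 451 CPM.

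The nearest cells were the 2030 neutrophils of the same library that kept Retnlg. Of 8743 genes compared, 120 (1.37%) were higher and 45 (0.515%) lower in the Retnlg-negative cells, with a median of 0.13, and without the deep cells 269 and 127. Of the listed genes, 3 of 16 neutrophil genes outside the rule were lower and none of the 23 cytokine genes passed 2-fold. Mmp8, a collagenase of neutrophil granules, had the lowest ratio among genes with at least 100 UMIs and found in at least 10% of either group's cells, at 88.5 CPM (78.0 to 100.1) against 236 CPM. Wfdc21, a whey acidic domain protein, stood at 254 CPM against 654 CPM, and Msra, a methionine sulfoxide reductase, at 79.1 CPM against 180 CPM. After these came Hp, Mgst1, Lcn2, Stfa2l1, Gm16556, Fpr1 and Cstdc4. Among the genes with the highest ratio were Ints6, Bcl2a1d, Arf2, AA467197, Il23a, Tm4sf1, Gm26535, Naa50 and Ccnd2, none of which reached 2-fold. Some depended on the deep cells: without them the log2 ratio of Tm4sf1 went from 0.69 to 0.07, that of Ints6 from 0.73 to 0.27 and that of Ccnd2 from 0.66 to 0.30, while that of Bcl2a1d, a member of the uncertain Bcl2a1 family, went from 0.73 to 1.02. On the lower side Hp went from -0.95 to -0.32. Il23a stood at 234 CPM against 145 CPM.

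Neutrophils of at most 3000 UMIs were also split by their Retnlg count. The bins held 1370 cells without Retnlg, 938 with 1 to 4 UMIs, 675 with 5 to 19 and 216 with 20 or more. Their median UMIs ran from 1272.5 to 1499.5, and their median S100a8 and S100a9 UMIs from 37 to 107.5, so depth and S100 level moved with Retnlg and their part in these levels was not tested. Of 2802 genes compared over the bins, 149 were higher in each successive bin and 517 lower, 23 and 53 of them by at least 2-fold between the first and last, so most genes did not follow Retnlg. The genes given here were chosen after their values were seen. In that order of bins Mmp8 had 111, 199, 314 and 562 CPM. Lcn2, the iron-binding protein lipocalin 2, had 1025, 1436, 1937 and 2262 CPM, and Thbs1, a matricellular protein, had 1483, 1903, 2503 and 3181 CPM. These 3 genes were thus lowest in the cells without Retnlg.

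Tnf, Csf1, Icam1, Il1a and Bcl2a1b ran in the opposite order. Tnf had 2715, 2025, 1772 and 1703 CPM from no Retnlg to 20 or more, and Csf1 had 867, 661, 508 and 473 CPM. Icam1 had 1191, 952, 736 and 706 CPM and Il1a, the membrane-bound interleukin 1, 666, 435, 379 and 343 CPM. Bcl2a1b, within the limits of its family, had 1678, 1186, 887 and 873 CPM. For each of these genes the largest step in CPM lay between no Retnlg and 1 to 4 UMIs, though for Icam1 the next step was close to it. Other inflammatory genes stayed near level: Il1b had 6217, 5654, 5716 and 5870 CPM and Cxcl2 29147, 25796, 26288 and 29758 CPM. Mcl1, at 2555, 2519, 2426 and 2412 CPM, and Slc7a11, at 2382, 2484, 2689 and 2617 CPM, were also near level.

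**Figure D5:**
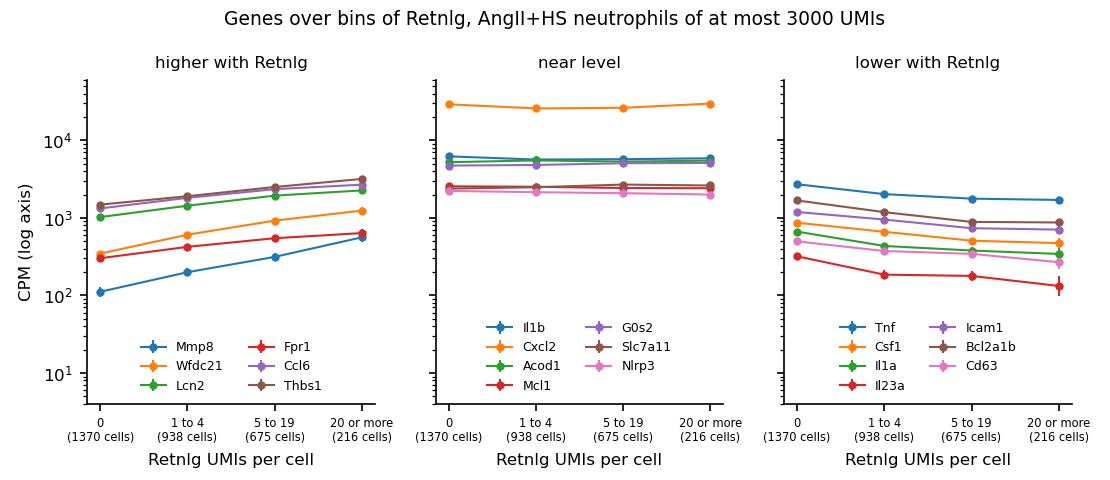
CPM (log axis) over 4 bins of Retnlg UMIs per cell in AngII+HS neutrophils of at most 3000 UMIs, with 95% counting intervals. Mmp8 went from 111 to 562 CPM and Tnf from 2715 to 1703 CPM between no Retnlg and 20 or more, while Il1b stayed between 5654 and 6217 CPM.

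Single cells without Retnlg varied in which mediators they carried. After thinning, a cell carried a median of 8 of the 24 cytokine-list genes, with quartiles of 6 and 9. The median was also 8 in Retnlg-positive neutrophils, 6 in macrophages and in monocytes, and 1 in lymphocytes. Ccl4 was uneven, with a median of 0 UMIs and a highest value of 87, whereas Acod1 had a median of 3 and a highest value of 19.

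Control neutrophils, nearly all of them with Retnlg, give the only view of these genes outside the treatment. In Control neutrophils of at most 3000 UMIs, Cxcl2 stood at 5540 CPM (5181 to 5918), Tnf at 590 CPM (477 to 723) and Csf1 at 232 CPM (164 to 320), against 29147, 2715 and 867 CPM in the Retnlg-negative cells of AngII+HS under the same depth limit. Il1b, at 5314 CPM (4962 to 5685), and Acod1, at 5057 CPM (4713 to 5418), were close to the 6217 and 5220 CPM of the Retnlg-negative cells. Mmp8 was 1237 CPM in Control against 111 CPM, and Wfdc21 3015 CPM against 346 CPM. The sides also differed in Retnlg, with which Mmp8 and Tnf moved within AngII+HS. The Retnlg-positive neutrophils of AngII+HS under the same depth limit had 26502 CPM of Cxcl2, 1888 CPM of Tnf, 579 CPM of Csf1, 290 CPM of Mmp8 and 808.1 CPM of Wfdc21. For each of these 5 genes they lay between Control and the Retnlg-negative cells. Each side is 1 library, so treatment, animals and library preparation cannot be told apart in these values.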

How the data were processed

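The authors deposited UMI counts per gene and barcode, made with Cell Ranger (8.0.1 in the matrix headers, 7.0 in the methods; GRCm39 in the methods, mm10 in the processing notes), as 1 matrix per library; 33696 gene rows were summed to 33670 symbols. The members and gene lists were chosen with earlier results of these data known. Cells were taken by fixed UMI rules without clustering and without doublet removal. UMIs were summed per group and scaled to CPM with exact Poisson intervals, shares carry exact Clopper-Pearson intervals, and log2 ratios add 0.5 UMIs to each sum. Every gene of the 26 lists could be named, and per comparison the 10 highest and 10 lowest ratios among genes with at least 100 UMIs and found in at least 10% of either group's cells, without rule genes. Ratios and intervals were tested on simulated data. Alternatives covered cell filters, thresholds, Scrublet (0.8% per 1000 barcodes), scaling (edgeR 4.0.16 TMM), weights, free RNA, thinning and count filters. Some genes and 1 other definition of macrophages are not reported here. Python 3.11.15, numpy 2.4.6, scipy 1.17.1, pandas 2.3.3 and scanpy 1.11.5 were used.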

Additional observations from a re-analysis of the deposited data

How the results depend on the processing

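A stricter cell filter and CPM without rule and mitochondrial genes moved no group-level result. Of the values of single genes and lists, Scrublet removal moved 147 and left 85. Free RNA subtraction moved 152 and left 84, and thinning before the rule moved 148 and left 50. Genes lower than in macrophages numbered 3701 without Scrublet doublets, 3694 with equal weight per cell, 3396 after free RNA subtraction, 4498 in neutrophils of at most 3000 UMIs (a limit chosen after seeing the data), 650 with thinning before the rule and 3246 with no UMI filter. Genes higher numbered 726 and 868 with thinning before and after the rule, 915 at 200 UMIs per gene and 5768 with no filter. Against monocytes, genes higher numbered 418, 709, 1754, 483 and 3491 (thinned before, thinned after, 20 UMIs, 200 UMIs, no filter), and genes lower 660, 646, 410 and 3550 (thinned before, thinned after, 200 UMIs, no filter), 704 under TMM, 1978 with equal weight, 1907 after subtraction and 2384 at most 3000 UMIs. Against Retnlg-positive neutrophils, genes higher and lower numbered 60 and 85 under TMM, 610 and 216 after subtraction, 269 and 127 at most 3000 UMIs, 15 and 14 thinned before, 35 and 17 thinned after, 381 and 133 at 20 UMIs, 11 and 14 at 200 UMIs and 2965 and 2521 with no filter, and those higher 45 without doublets and 274 with at most 1 Retnlg UMI. TMM shifted every log2 ratio by -0.09 against macrophages, 0.23 against monocytes and -0.16 against Retnlg-positive neutrophils.

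The cytokine median against macrophages was 0.74 without doublets, without C1q UMIs, at 20 UMIs and with no filter, 0.51 with equal weight, 0.99 and 0.53 thinned before and after, and 1.56 against monocytes thinned before. The nuclear respiratory median was -1.11, -1.05, -0.94, -0.93 and -1.22 against macrophages (no doublets, thinned before, equal weight, subtraction, at most 3000 UMIs) and -1.35, -1.23, -1.28 and -1.41 against monocytes (the same without subtraction). The survival median against macrophages was 0.79, 0.82 and 0.56 (thinned before, thinned after, at most 3000 UMIs). Against monocytes, glycolysis gave -0.19 under TMM and -0.0034 thinned before, and death genes -1.25 thinned before. Mcpt4 reversed against monocytes at most 3000 UMIs (-0.70, with 1 Mcpt4 UMI in monocytes). Retnlg-negative neutrophils were 40.0% of AngII+HS neutrophils at 20 S100a8 and S100a9 UMIs, 55.7% with at most 1 Retnlg UMI (8 cells in Control) and 50.4% thinned before. The cause of these changes was not tested. The monocyte group held 131 cells and 680890 UMIs. No paired analysis was possible because each condition had 1 library.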

Other observations

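Antigen presentation and interferon genes were also read in the Retnlg-negative neutrophils of AngII+HS. Of 12 antigen presentation genes 1 was higher and 8 lower than in macrophages (median log2 ratio -2.67), and of 11 none was higher and 8 were lower than in monocytes (median -1.91). Cd74, the invariant chain of MHC class II, stood at 622 CPM, or 274 CPM without the cells above 3000 UMIs, against 5399 CPM in macrophages and 2735 CPM in monocytes. H2-Aa, an MHC class II chain, stood at 352 CPM, or 127 CPM without those cells, against 2768 and 1325 CPM. Cd86, a ligand that co-stimulates T cells, stood at 84.0 CPM against 543 and 342 CPM, while Cd80, a ligand of the same receptor, had 174 CPM against 65.3 and 160 CPM. The class I gene H2-K1 stood at 1109 CPM against 2109 and 2146 CPM.

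Of 18 interferon-stimulated genes 3 were higher and 3 lower than in macrophages (median 0.19). That was 16.7% each way, close to the 16.0% and 17.7% of all genes. Against monocytes 2 were higher and 6 lower (median -0.54), or 11.1% and 33.3% against 16.0% and 16.9% of all genes. Slfn4, a myeloid member of the Schlafen family, stood at 347 CPM against 16.2 and 103 CPM. Ifitm1, an interferon-induced membrane protein, had 582 CPM against 81.6 CPM in macrophages and 784 CPM in monocytes. Irf7, a regulator of type I interferon, had 40.8 CPM against 70.8 and 185 CPM, and Oasl1, its translational repressor, 69.0 CPM against 394 and 179 CPM.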
